A study of Mus musculus with 150 samples.

Results

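Serpina1b, Tmem87a, Fbp2, Pik3ap1, Slc15a2 and Nxpe4 are 6 genes whose array signal set the lungs of CD-1 mice apart from those of C57BL/6 mice. They are 6 of 17097 genes named on the arrays and are read by 10 of 45037 probe sets, which are kept apart here. They were chosen by measured values of these data, namely the largest CD-1 minus wild-type differences in array signal among mice that breathed air, so that contrast is described without a test. The tests between kinds of mice use lungs outside that contrast, mainly of mice that breathed styrene. Comparisons of styrene with air and of weeks in CD-1 and WT share air lungs with it and are marked as such.

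Adult males had inhaled 120 ppm styrene, a solvent that lung enzymes oxidise, or air (0 ppm) for 26, 52, 78 or 104 weeks before their whole lungs were taken for arrays. Each of the 150 arrays holds RNA of 1 mouse, and all mice came from a single supplier. CD-1 is an outbred stock, so its mice differ in genotype, and 21 breathed styrene and 21 air. The TG mice were C57BL/6 mice that lacked CYP2F2 and carried a transgene labelled 2F1,SA13,2B6 (19 styrene, 19 air). The labels used here do not give its promoter. The KO mice were C57BL/6 mice that lacked CYP2F2 (19 styrene, 20 air). The WT mice were wild-type C57BL/6 (20 styrene, 11 air), with no air group at 26 weeks analysed here. The 31 groups held 2 to 10 mice. The treatment label speaks of 1 or 4 weeks of exposure, which differs from the weeks given for each sample, and the weeks of each sample were used here.

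Array signals are log2 intensities, so a difference of 1 is a doubling. Each probe set is a group of short oligonucleotides along a transcript. Where a strain carries another base or another splice form under these oligonucleotides, its signal can differ at the same amount of transcript, and the 2 cannot be told apart on an array. In whole lung, fewer cells of a type and less RNA per cell cannot be told apart either. Of the 45037 probe sets, 39185 passed a filter on dim values, all 10 of the members' among them. The filter level lay between 2.99 and 3.19, and values near it carry little signal.

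The CYP2F2 label was checked on Cyp2f2 itself. Its signal lay between 11.80 and 12.40 in TG, between 11.69 and 12.55 in KO and between 12.95 and 13.53 in WT lungs, so neither TG nor KO overlapped WT. The signal stayed bright in lungs labelled as lacking CYP2F2, with medians of 12.10 in TG and 12.15 in KO, against 13.33 in WT. CD-1 lungs ranged from 12.07 to 13.54 and overlapped both. The sources used here do not say whether the Cyp2f2 probe set lies in the deleted part, and outside it the signal would not check the label. Club cell markers were bright on every array, at a mean of 6 genes of at least 10.80. At 104 weeks all CD-1 styrene arrays lay on plate 4 and all CD-1 air arrays on plate 3, as inferred from well labels. Dose and plate thus cannot be told apart at that time. Of the styrene arrays of 104 weeks, 2 of TG and 2 of KO could lie on plate 3 or 4. At 78 weeks all TG and KO styrene lungs lay on plate 2 and all their air lungs on plate 1. In WT at 78 weeks 4 of 5 styrene lungs lay on plate 2 and both air lungs on plate 1. The plate 2 term of the fit rests on the 3 groups that held arrays of plates 1 and 2. There were 2 KO lungs that stood apart by transcripts of liver plasma proteins: replicate 1 of air at 78 weeks and replicate 4 of styrene at 52 weeks.

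The members have unrelated roles. Serpina1b is 1 of several mouse copies of the gene for α1-antitrypsin, a protease inhibitor made mainly in the liver that protects lung elastin from neutrophil elastase. Fbp2 is the muscle form of fructose bisphosphatase, a gluconeogenic enzyme, and Pik3ap1 encodes BCAP, an adaptor that links B cell and Toll-like receptors to PI3K. Slc15a2 encodes PEPT2, a proton-coupled carrier of short peptides found in lung epithelium, Tmem87a a Golgi membrane protein, and Nxpe4 a member of the neurexophilin and PC-esterase domain family.

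The Serpina1 copies are shown around their start sites, where they are nearly identical. Probe sequences were not in the sources used here, so these stretches do not tell which copy a Serpina1b probe set reads. The following 100-base stretches of the RefSeq GRCm38.p6 reference lie at or near the annotated start sites on the minus strand of chromosome 12, at chr12:103738156-103738255 for Serpina1b, and have GTTAAT in capitals, the core letters of sites bound by HNF1, a liver transcription factor.
Serpina1b: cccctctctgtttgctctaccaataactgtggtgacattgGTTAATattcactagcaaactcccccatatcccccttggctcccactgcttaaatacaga
Serpina1a: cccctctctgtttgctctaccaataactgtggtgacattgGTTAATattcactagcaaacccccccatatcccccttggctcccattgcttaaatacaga
Serpina1c: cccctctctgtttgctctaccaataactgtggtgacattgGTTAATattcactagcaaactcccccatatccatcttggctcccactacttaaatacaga
Serpina1d: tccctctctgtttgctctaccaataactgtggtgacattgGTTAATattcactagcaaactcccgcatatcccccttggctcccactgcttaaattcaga
Serpina1e: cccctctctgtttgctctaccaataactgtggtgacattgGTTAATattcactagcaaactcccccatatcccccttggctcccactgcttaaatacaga
The Serpina1b stretch matches that of Serpina1e at 100 of 100 bases, Serpina1a at 98, and Serpina1c and Serpina1d at 97 each. The Serpina1a stretch lies at chr12:103863581-103863680, Serpina1c at chr12:103904918-103905017, Serpina1d at chr12:103773590-103773689 and Serpina1e at chr12:103956916-103957015. Of 32851 reference promoters in the same table, each 300 bases long, 7.1% hold GTTAAT on either strand, and among the 6 members those of Serpina1b and Nxpe4 do. The sequences are of the reference genome and not of CD-1 mice.

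In air, at 52, 78 and 104 weeks, the contrast that chose the members, lead probe sets differed by 5.19 (Serpina1b), 4.12 (Tmem87a), 3.49 (Fbp2) and 3.20 (Pik3ap1) log2 units upward in CD-1 relative to WT, and by -4.02 (Slc15a2) and -3.84 (Nxpe4) downward. The lead probe set is the brightest of a gene over all arrays. The next genes outside the list were Efhd1 at 2.74 on the higher side, and Azgp1 at -3.39 and Smim6 at -3.26 on the lower side. Ang5, at 4.01, lay above Fbp2 and Pik3ap1 but is not on the list.

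**Figure D1:**
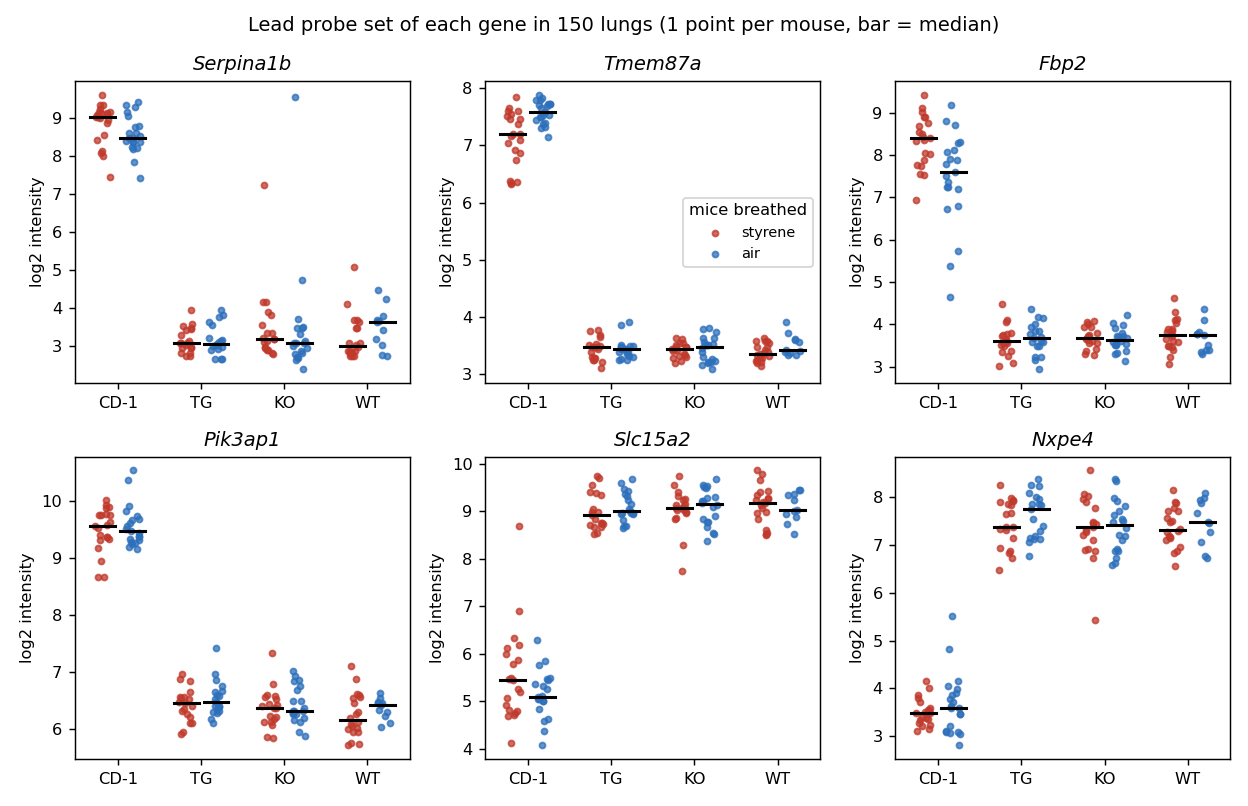
Log2 intensity of the lead probe set of each gene (vertical axis) in CD-1, TG, KO and WT lungs (horizontal axis), with 1 point per mouse, styrene in red, air in blue and bars at the medians. CD-1 lungs lie above all others for Tmem87a, Fbp2 and Pik3ap1, 1 KO lung reaches the CD-1 range for Serpina1b, and CD-1 lungs lie lower for Slc15a2 and Nxpe4 with 1 CD-1 lung inside the C57BL/6 range in each.

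The question of the first comparison was whether the separation held in mice that were not used to choose the genes. In styrene-exposed lungs 9 of the 10 probe sets differed between CD-1 and WT (limma, mean of 4 weeks), where 14.8% of the 39185 probe sets tested did. The same 9 and the second Pik3ap1 probe set differed between CD-1 and KO (10 of 10, against 21% of all) and between CD-1 and TG (10 of 10, against 16.7%). In air at 26 weeks, where the CD-1 mice had no part in choosing the genes, 9 of 10 differed from the mean of KO and TG, against 6.41% of all probe sets. The probe set that did not pass, the second of Pik3ap1, passed between CD-1 and WT without the plate term, at -0.28, and in air at 26 weeks with only the arrays compared, at -0.39 (limma adjusted p = 0.0390 and 0.0472). These comparisons share their CD-1 mice, apart from the one in air.

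The separation was also read within single plates. On plate 1 alone the leads differed between CD-1 and WT in styrene by 5.49 for Serpina1b, 4.07 for Tmem87a, 4.44 for Fbp2 and 3.37 for Pik3ap1, and by -4.04 for Slc15a2 and -3.97 for Nxpe4. At 104 weeks on plate 4 alone these differences were 5.65, 3.37, 4.55, 3.04, -3.46 and -3.64 in the same order of genes. All 12 of these within-plate differences of leads passed the test.

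The protease inhibitor gene showed the largest mean difference of the members. Serpina1b lead signals in styrene ran from 7.44 to 9.63 with a median of 9.04 in 21 CD-1 lungs, against 2.72 to 5.08 with a median of 2.99 in 20 WT lungs. No CD-1 lung overlapped a WT lung. The difference was 5.59 ± 0.25 log2 (SE, limma adjusted p = 2.37e-41). As 11 of the 20 WT signals lay at or under the filter level, the fold is a bound, at least 41.6-fold higher in CD-1. The second Serpina1b probe set gave 5.68 ± 0.24 and, since its WT mean lay under the filter level, at least 40.5-fold higher signal in CD-1 (limma adjusted p = 3.35e-44).

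Serpina1b was also compared in air at 26 weeks. The 5 CD-1 lungs measured 8.50, 8.19, 8.37, 7.42 and 8.61, against 3.21, 2.92, 3.09 and 2.65 in TG and 2.37, 2.79, 2.68, 3.13 and 2.86 in KO lungs. The groups did not overlap, and the difference of at least 35.0-fold passed the test (limma adjusted p = 6.17e-22). Across weeks in styrene the CD-1 minus WT difference of Serpina1b stayed between 5.33 (52 weeks) and 5.95 (78 weeks). Its SE was 0.40 to 0.66, so these weekly values lay within each other's error.

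Both Serpina1b probe sets carry the suffix for oligonucleotides that also match other sequences, so which Serpina1 copy they read is uncertain. The probe sets named for Serpina1a, Serpina1c and Serpina1d were dim in CD-1, and those of Serpina1a and Serpina1d carry the same suffix. Serpina1e was not looked at separately here, so these do not cover all copies. Serpina1a had a median of 2.36 and a highest value of 2.90 over 42 CD-1 lungs, Serpina1c 3.11 and 4.59, and Serpina1d 2.49 and 2.99. Albumin (Alb), the defining liver transcript, had a median of 3.52 and a highest value of 4.56 in the same lungs, against 3.39 and 4.80 in the 106 C57BL/6 lungs that did not stand apart. Serpina1b thus stood at a CD-1 median of 8.79 in lungs where Serpina1a and Serpina1d were at or under the filter level.

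The 2 KO lungs with liver transcripts showed another pattern. In the KO air lung of 78 weeks Serpina1b measured 9.56, Serpina1c 10.84, Serpina1a 8.71 and Alb 9.80. In the KO styrene lung of 52 weeks Serpina1b measured 7.25, Serpina1c 8.85, Serpina1a 6.25 and Alb 8.82. Serpina1d measured 4.19 and 2.73 in these lungs, so it was dim in the styrene lung as well. Serpina1a and Serpina1c were high together with Serpina1b in these 2 lungs and low in all 42 CD-1 lungs. Mean signals of liver markers were 8.64 and 6.68 in them and at most 4.12 on any other array. Without these 2 lungs, the Serpina1b difference between CD-1 and KO in styrene was 5.59, against 5.38 ± 0.27 with them.

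**Figure D2:**
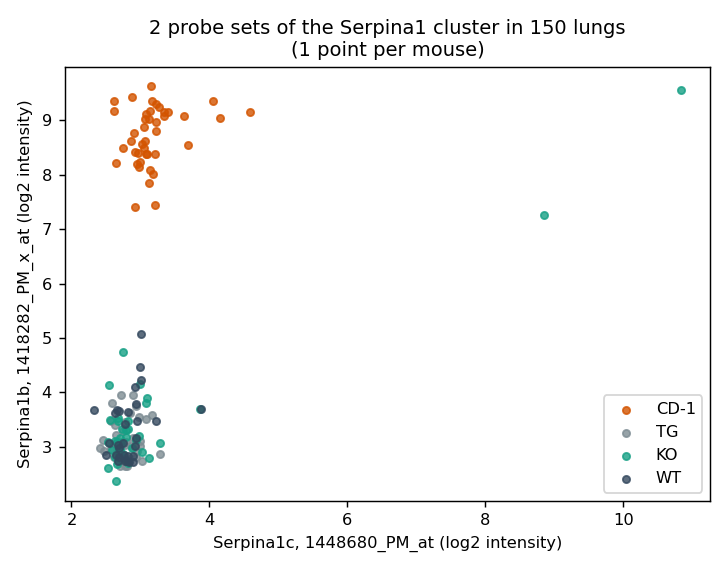
Log2 intensity of the Serpina1b lead probe set (vertical axis) against Serpina1c (horizontal axis) in 150 lungs, 1 point per mouse, coloured by kind of mouse. CD-1 lungs are high for Serpina1b at Serpina1c signals of at most 4.59, while the 2 KO lungs with liver transcripts are high for both at 8.85 and 10.84.

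Of 19 other clade A serpins listed here, which do not cover the whole clade, 7 had a probe set that was tested. In styrene 1 of these was higher and 1 lower in CD-1 than in WT, where 16.7% of all 15695 lead probe sets differed. Serpina9, an inhibitor known from germinal centre B cells, fell by 1.28 to a CD-1 mean of 3.43, against 4.67 in WT (limma adjusted p = 1.11e-06). Serpina10, the protein Z-dependent inhibitor, was higher by 0.67 (limma adjusted p = 0.0344). Serpina1c differed by 0.45 (limma adjusted p = 0.375). The median difference over these 7 genes was 0.09, against 0.01 over all lead probe sets.

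Fbp2 was the gene with the widest range among CD-1 mice. In styrene it ran from 6.95 to 9.43 with a median of 8.41 in CD-1 lungs, against 3.05 to 4.63 with a median of 3.75 in WT lungs. The groups did not overlap, and the difference was 4.51 ± 0.17, or 22.8-fold (limma adjusted p = 2.10e-49). In air at 26 weeks the CD-1 lungs measured 7.38, 8.30, 7.50, 9.17 and 8.81, against 3.76, 3.61, 3.70 and 4.16 in TG and 3.53, 3.52, 3.36, 3.79 and 3.50 in KO lungs. There the difference was 4.56 ± 0.27 (limma adjusted p = 5.83e-30).

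Within groups, the SD of Fbp2 was 0.81 over the 42 CD-1 lungs, against 0.29 over the C57BL/6 lungs. This ratio of 2.77 was reached by 0.63% of all probe sets tested, whose median ratio was 1.12. Fbp2 was dim in C57BL/6 and bright in CD-1 lungs, so the ratio does not part brightness from spread among mice. The CD-1 air lungs of 78 weeks were the most uneven, at 5.38, 8.11, 5.74, 4.64 and 7.91 for Fbp2. Its lowest value, 4.64, was just above the highest C57BL/6 value of 4.63. In the same weeks the 3 CD-1 styrene lungs measured 8.77, 6.95 and 7.74.

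The liver form of the enzyme, Fbp1, lies beside Fbp2 on chromosome 13 and followed it across CD-1 mice. The correlation of deviations from group means was r = 0.88 (Spearman rho = 0.83) over 42 CD-1 lungs, and r = 0.84 without the 2 lungs farthest out in Fbp1. Over the C57BL/6 lungs it was r = 0.03. Fbp2 signals there ran from 2.93 to 4.63 with a median of 3.66, not far from the filter level. They left little signal to correlate, so the 2 values of r cannot be set against each other. Both genes were read on the same arrays and the lungs share plates, so these values are a description. In the CD-1 air lungs of 78 weeks Fbp1 measured 4.60, 6.28, 4.82, 4.37 and 6.68 in the order of replicates, and the 3 lungs low in Fbp2 were the 3 low in Fbp1.

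Fbp1 was 2.95 ± 0.31 higher in CD-1 than in WT in styrene, or 7.72-fold (limma adjusted p = 1.04e-14). Its CD-1 signals ranged from 4.37 to 7.75 with a median of 6.46, against 2.92 to 8.69 with a median of 3.72 in C57BL/6. Unlike Fbp2, it was also high in single C57BL/6 lungs: 5 lay above 7, where Fbp2 measured 3.27 to 4.16. Among 14 genes of fructose bisphosphate metabolism tested in addition to Fbp2, 1 was higher in CD-1 and 2 lower, where 16.7% of all lead probe sets differed. The lower ones were Pfkp, the platelet form of phosphofructokinase, at -0.26 (limma adjusted p = 0.000132) and Pck2, the mitochondrial phosphoenolpyruvate carboxykinase, at -0.23 (limma adjusted p = 0.0229). The median over these 14 genes was -0.04. None of 9 markers of skeletal and heart muscle, where Fbp2 is best known, differed. Their mean ran from 5.07 to 9.56 in CD-1 and from 5.58 to 7.81 in WT lungs in styrene, and its part in the Fbp2 signal was not tested.

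As Fbp2 and Fbp1 moved together in CD-1 lungs, the 120 bases before each start site in the RefSeq GRCm38.p6 reference are printed here, minus strand of chromosome 13, at chr13:62858401-62858520 and chr13:62888283-62888402, with CACGTG, an E-box, in capitals.
Fbp2: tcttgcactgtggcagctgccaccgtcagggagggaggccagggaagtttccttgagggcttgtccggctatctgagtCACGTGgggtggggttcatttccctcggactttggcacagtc
Fbp1: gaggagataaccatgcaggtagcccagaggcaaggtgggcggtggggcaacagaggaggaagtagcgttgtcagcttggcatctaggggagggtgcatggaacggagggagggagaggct
The Fbp2 window holds the E-box and the Fbp1 window does not. Of all 32851 promoters of 300 bases, 7.15% hold CACGTG, a motif that reads the same on both strands, and among the 6 members those of Fbp2, Pik3ap1 and Nxpe4 do.

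**Figure D3:**
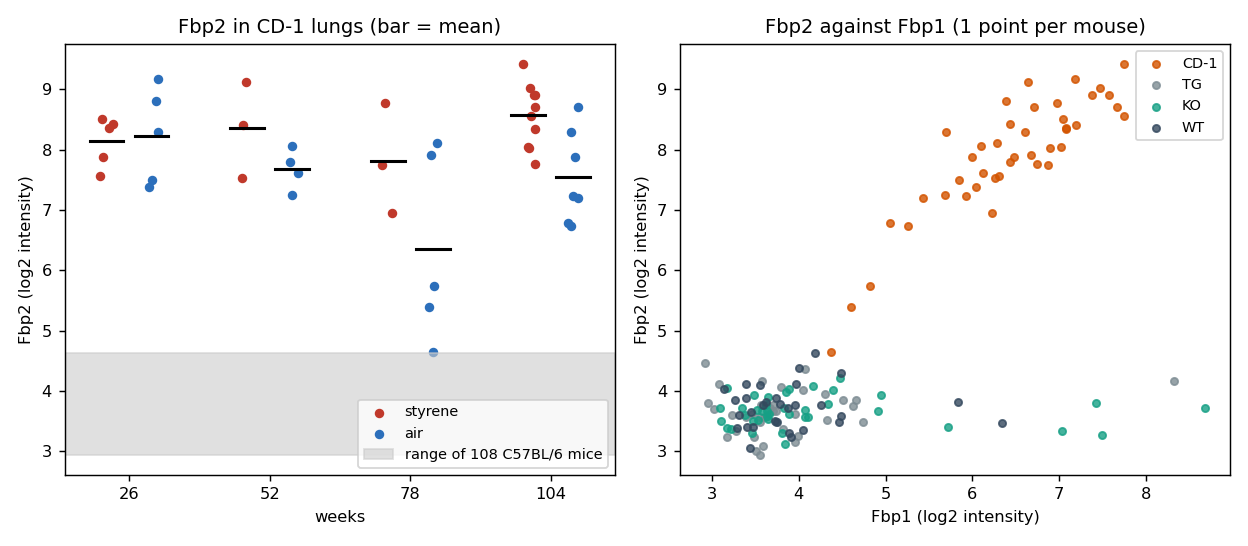
Left, log2 intensity of Fbp2 (vertical axis) in CD-1 lungs by weeks of exposure (horizontal axis), styrene in red and air in blue, with bars at group means and the range of the C57BL/6 lungs, 2.93 to 4.63, shaded. Right, Fbp2 (vertical axis) against Fbp1 (horizontal axis), 1 point per mouse, where the 3 CD-1 air lungs of 78 weeks with the lowest Fbp2 (4.64, 5.38 and 5.74) also have Fbp1 under 5 and the few C57BL/6 lungs with high Fbp1 have low Fbp2.

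Tmem87a had the smallest standard error of the 6 leads. In styrene it ran from 6.32 to 7.84 with a median of 7.20 in CD-1 lungs, against 3.16 to 3.64 with a median of 3.36 in WT lungs. The groups did not overlap, and the difference was 3.80 ± 0.07, or 14.0-fold (limma adjusted p = 1.06e-79). In air at 26 weeks CD-1 lungs measured 7.49, 7.59, 7.66, 7.31 and 7.37, against 3.50, 3.45, 3.50 and 3.35 in TG and 3.27, 3.23, 3.16, 3.51 and 3.09 in KO lungs, a difference of 4.13 ± 0.12 (limma adjusted p = 5.62e-60). C57BL/6 signals of Tmem87a, from 3.09 to 3.91, lay at or just above the filter level.

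A single probe set reads Tmem87a, so no second one was there to set beside it. Its paralog Tmem87b differed by -0.03 between CD-1 and WT in styrene (limma adjusted p = 0.929). Of 14 Golgi membrane genes tested, Tmem87b included, 1 was higher and 2 lower in CD-1, against 16.7% of all lead probe sets, with a median of 0.00. The higher one was Gpr107, a Golgi protein of the same fold, at 0.29 (limma adjusted p = 0.000116), and the lower ones were Vps51, a subunit of a tethering complex, at -0.44 and Tgoln1, a trans-Golgi membrane protein, at -0.43 (limma adjusted p = 1.77e-05 and 0.000111).

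The Pik3ap1 probe sets disagreed. The lead one ran from 8.66 to 10.01 with a median of 9.55 in CD-1 lungs in styrene, against 5.71 to 7.10 with a median of 6.16 in WT lungs, with no overlap. It differed by 3.22 ± 0.10, or 9.35-fold (limma adjusted p = 2.16e-58). The second probe set ran from 4.81 to 6.08 with a median of 5.59 in CD-1 lungs, against 5.28 to 6.59 with a median of 5.71 in WT lungs. Its groups overlapped broadly, and it differed by -0.24 ± 0.10 (limma adjusted p = 0.110). Averaging both probe sets gave 1.49 in place of 3.22.

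Against KO and TG the second Pik3ap1 probe set was lower in CD-1 by -0.30 and -0.34 (limma adjusted p = 0.0300 and 0.0158), opposite in sign to the lead. The call against KO was lost under 5 other settings, and that against TG under 3. The call against KO was also lost, at values from -0.25 to -0.30, without any 1 of 6 single mice: KO styrene replicate 4 of 26 weeks or 5 of 78 weeks, or CD-1 styrene replicate 2 of 26 weeks, 1 or 2 of 52 weeks or 2 of 78 weeks. Against WT it was -0.31 and passed without CD-1 styrene replicate 3 of 52 weeks (limma adjusted p = 0.0292). In lungs outside the choosing contrast the lead exceeded the second probe set by 3.27 to 4.56 in 26 CD-1 lungs and by -0.08 to 0.93 in 97 C57BL/6 lungs, and these ranges do not overlap. Within a strain they went together, with r = 0.77 over CD-1 and r = 0.81 over C57BL/6 deviations from group means.

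Genes of the PI3K and B cell receptor route gave 1 higher and 1 lower of 16 tested, which is no larger a share than the 16.7% of all lead probe sets, with a median of 0.09. Pik3cg, the catalytic subunit found in leukocytes, was higher by 0.75 (limma adjusted p = 3.14e-05) and Dapp1, an adaptor of B cells, lower by -0.51 (limma adjusted p = 2.84e-05). Plcg2, a phospholipase of the same receptor, differed by 0.29 (limma adjusted p = 0.0931) and Pik3r5, a regulatory subunit, by 0.41 (limma adjusted p = 0.0956). None of 7 B cell markers differed. Of 7 alveolar macrophage markers 3 were higher in CD-1, at 0.75 for Siglecf, 0.65 for Mrc1 and 0.36 for Pparg (limma adjusted p = 1.00e-08, 0.0147 and 0.0420). The mean of these 7 markers ran from 7.92 to 9.04 in CD-1 and from 7.35 to 9.50 in WT lungs in styrene. Across 42 CD-1 lungs, which share plates, deviations of the Pik3ap1 lead from group means had r = 0.52 with this mean. With that of the club cell markers they had r = -0.52. The part of these cells in the Pik3ap1 signal was not tested.

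**Figure D4:**
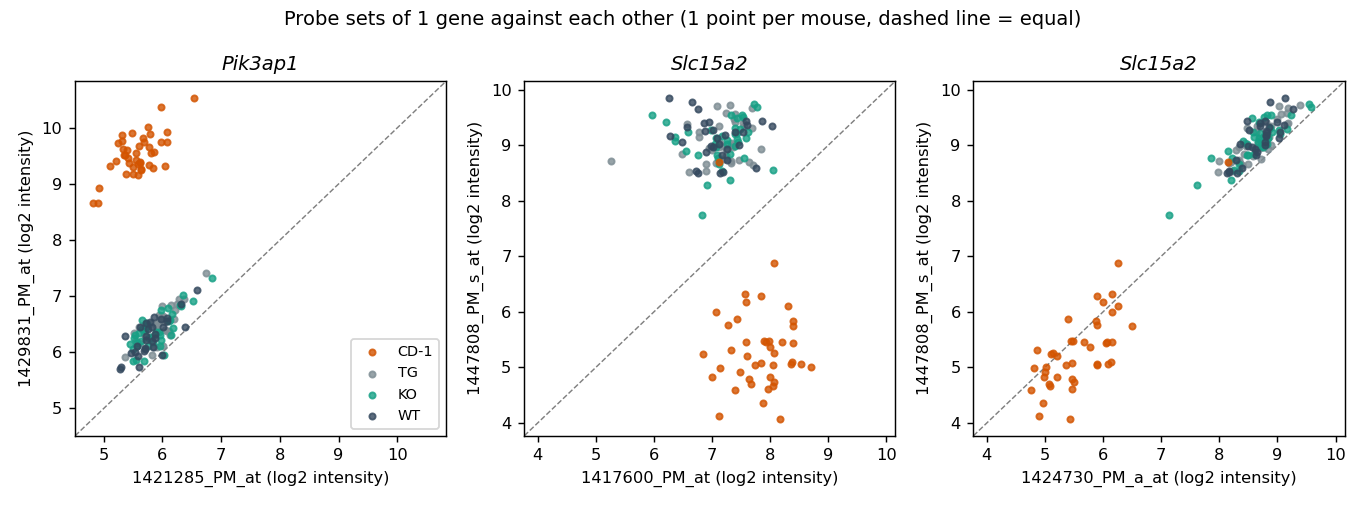
Log2 intensities of 2 probe sets of the same gene against each other, lead probe set on the vertical axis, 1 point per mouse, with the dashed line at equality. For Pik3ap1 the CD-1 lungs sit 3.27 to 4.56 above the second probe set. For Slc15a2 they are lower on 2 probe sets that go together and not on the third.

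Slc15a2 has 3 probe sets, and they did not agree either. The lead one ran from 4.12 to 8.69 with a median of 5.45 in CD-1 lungs in styrene, against 8.49 to 9.85 with a median of 9.17 in WT lungs. A single CD-1 lung, replicate 3 at 104 weeks, reached the WT range at 8.69, and the next highest CD-1 lung measured 6.89. The difference was -3.78 ± 0.14, or 13.8-fold lower in CD-1 (limma adjusted p = 3.56e-49). The second Slc15a2 probe set gave -3.10 ± 0.13 (limma adjusted p = 1.57e-43), and the same CD-1 lung measured 8.15 on it.

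The third Slc15a2 probe set pointed the other way. It ran from 6.84 to 8.53 with a median of 7.58 in CD-1 lungs, against 6.26 to 7.76 with a median of 6.91 in WT lungs, and the groups overlapped. It was higher in CD-1 by 0.74 ± 0.13, or 1.67-fold (limma adjusted p = 1.02e-06). Against KO it was higher by 0.57, against TG by 0.69, and in air at 26 weeks by 0.91 (limma adjusted p = 0.000360, 1.77e-05 and 0.000687). The call against KO was lost without 104 weeks, at 0.40, and on plate 1 alone, at 0.44 (limma adjusted p = 0.0537 and 0.0506), and that against TG at 104 weeks on plate 4, at 0.47 (limma adjusted p = 0.0615). The mean of the 3 probe sets gave -2.05 in place of -3.78.

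Deviations from group means tell the Slc15a2 probe sets apart as well. The lead and the second had r = 0.84 over 42 CD-1 and r = 0.90 over the C57BL/6 lungs. The lead and the third had r = 0.13 and r = 0.29. Without the 2 CD-1 lungs farthest out, the first of these values was 0.66. The SD of the lead was 0.66 in CD-1, against 0.29 in C57BL/6, a ratio that 1.5% of all probe sets reached.

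Of 14 other genes of peptide transport and breakdown, 4 were higher and 1 lower in CD-1, against 16.7% of all lead probe sets. The lysosomal carriers Slc15a3 and Slc15a4 were higher by 0.60 and 0.25 (limma adjusted p = 0.00155 and 0.00365), Ace, the angiotensin converting enzyme, by 0.40 (limma adjusted p = 0.000380), and Lap3, a leucine aminopeptidase, by 0.27 (limma adjusted p = 0.0121). Among 6 markers of alveolar type 2 cells, which carry Slc15a2, 1 was higher and 4 lower in CD-1, all by less than the Slc15a2 lead. Sftpd, a surfactant protein gene, was lower by -0.35 and Napsa, a surfactant-processing protease, by -0.51 (limma adjusted p = 6.15e-08 and 3.93e-05). The mean of these markers ran from 11.39 to 11.90 in CD-1 and from 11.58 to 11.95 in WT lungs in styrene, and its part in the Slc15a2 signal was not tested.

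Nxpe4 ran from 3.11 to 4.15 with a median of 3.48 in CD-1 lungs in styrene, against 6.57 to 8.15 with a median of 7.31 in WT lungs. The groups did not overlap. The difference was -3.91 ± 0.14 (limma adjusted p = 1.92e-52). In air at 26 weeks the CD-1 lungs measured 2.81, 3.60, 3.10, 3.10 and 3.06 for Nxpe4, against 7.29, 7.41, 7.06 and 7.20 in TG and 7.50, 7.18, 7.63, 6.63 and 7.11 in KO lungs, a difference of -4.09 ± 0.22 (limma adjusted p = 1.05e-33).

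Most CD-1 values of Nxpe4 were near the filter level, with exceptions of 5.52 and 4.82 in 2 CD-1 lungs of the air group at 104 weeks. The lowest C57BL/6 value was 5.43, in a KO styrene lung of 104 weeks. It was the one C57BL/6 value of Nxpe4 below the highest in CD-1. Nxpe2, its neighbour and the 1 other NXPE gene tested, was lower in CD-1 by -0.46 (limma adjusted p = 1.37e-06), at means of 2.79 in CD-1 and 3.23 in WT lungs.

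Some genes beside the members on the chromosomes differed as well. Of 133 genes with starts within 1 Mb of a member, 37 differed between CD-1 and WT in styrene (27.8%, against 16.7% of all lead probe sets), 13 higher and 24 lower. The counts were 4 of 22 (18.2%) around Serpina1b and 6 of 32 (18.8%) around Pik3ap1, close to the share of all lead probe sets. They were 13 of 38 (34.2%) around Tmem87a, 3 of 6 (50%) around Fbp2, 6 of 23 (26.1%) around Slc15a2 and 5 of 12 (41.7%) around Nxpe4. The neighbours with the smallest p were Ppip5k1, an inositol phosphate kinase gene, near Tmem87a at -1.72, Nnmt, nicotinamide N-methyltransferase, near Nxpe4 at -2.02, and Exd1 near Tmem87a at 1.60 (limma adjusted p = 2.08e-36, 1.76e-33 and 1.81e-31).

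The C57BL/6 lines were set against each other in a pair of comparisons. Between KO and WT in styrene, 0 of 10 probe sets differed (0 at an unadjusted p under 0.05 by limma), where 1.44% of all did. Between TG and KO it was also 0 of 10 (0 unadjusted), against 0.383%. The KO minus WT differences lay between -0.12 and 0.34, and the TG minus KO differences between -0.39 and 0.10. The values of 0.34 and -0.39 are those of the second Serpina1b probe set. Without the KO lungs with liver transcripts the ranges were -0.11 to 0.17 and -0.18 to 0.10. TG was not set against WT. For Tmem87a the 95% interval of KO minus WT was -0.08 to 0.20, and for Fbp2 -0.40 to 0.23.

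Styrene itself was compared with air within each kind of mouse, over weeks up to 78. In CD-1 and WT the air lungs of 52 and 78 weeks had helped to choose the genes, so differences that include them are given as a description. In CD-1 at 26 weeks, whose lungs had no part in the choice, 0 of 10 probe sets passed (2 at an unadjusted p under 0.05 by limma), where 0.38% of all probe sets did. In TG the count was 0 of 10 (1 unadjusted, 0% of all probe sets), and in KO 0 of 10 (0 unadjusted, 0%). On plate 1 alone, which leaves out the styrene lungs of 78 weeks in TG and KO, it was 0 of 10 in both. Without the plate term, the third Slc15a2 probe set passed in TG at -0.45, where 8.12% of all probe sets did.

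Over the weeks that share lungs with the choosing contrast, 0 of 10 probe sets were called in CD-1 (3 unadjusted by limma, 0.411% of all) and in WT (0 unadjusted, 0.0153%). The largest of these differences was that of Fbp2 in CD-1, at 0.69 with a 95% interval of 0.29 to 1.08. It ran from 0.53 to 0.83 with single lungs left out in turn. The 4 lungs whose removal brought a call were all CD-1. They were styrene replicate 1 of 52 weeks, styrene replicate 2 of 78 weeks, and air replicates 2 and 5 of 78 weeks.

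By week the Fbp2 difference between styrene and air in CD-1 was -0.14 ± 0.32 at 26, 0.74 ± 0.38 at 52, 1.46 ± 0.36 at 78 and 1.02 ± 0.24 at 104 weeks (SE). The comparison at 78 weeks holds the 3 low air lungs. The styrene effect on Fbp2 in CD-1 less that in WT, over 52 and 78 weeks, was 1.44 ± 0.40, and 0 of 10 probe sets were called (1 unadjusted by limma, 0% of all). It too includes lungs that chose the genes.

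**Figure D5:**
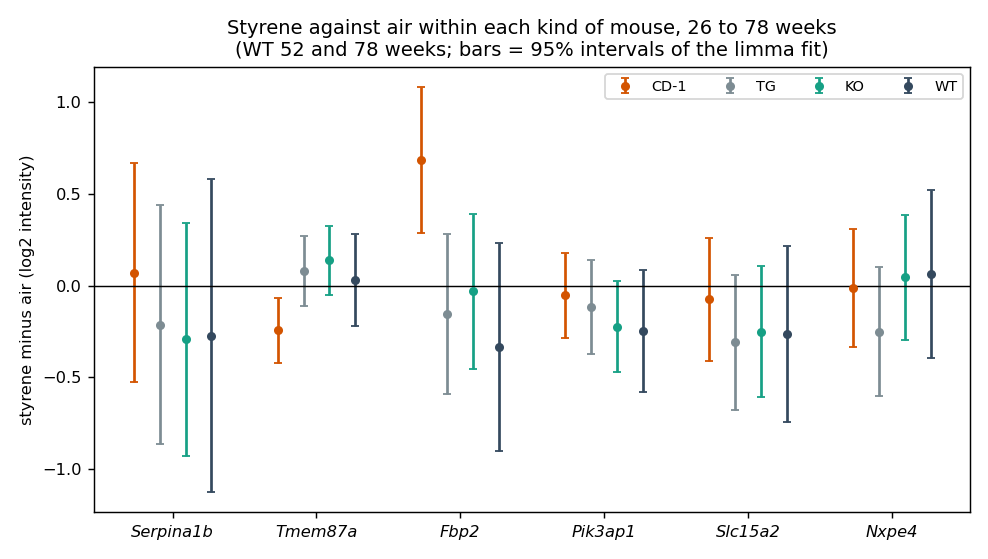
Styrene minus air difference in log2 intensity (vertical axis) of the lead probe set of each gene (horizontal axis) in CD-1, TG, KO and WT lungs, as points with 95% intervals of the limma fit over 26, 52 and 78 weeks (52 and 78 in WT). Intervals of all but 2 points include 0, the exceptions being Fbp2 (0.69) and Tmem87a (-0.24) in CD-1, whose air lungs of 52 and 78 weeks also chose the genes.

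At 104 weeks dose and plate cannot be told apart, and the CD-1 air lungs are among those that chose the genes, so the values are a description. There 5 of 10 probe sets were called between styrene and air in CD-1, where 58.6% of all probe sets were. Fbp2 was at 1.02 ± 0.24, with values from 7.77 to 9.43 and a median of 8.63 in 10 styrene lungs, against 6.74 to 8.71 and a median of 7.24 in 7 air lungs. Tmem87a was at -0.63 ± 0.11, the 2 agreeing Slc15a2 probe sets at 0.77 and 0.68, and Nxpe4 at -0.50. With only the arrays compared, Slc15a2 and Nxpe4 were not called and both Serpina1b probe sets were, at 0.44 and 0.52. Without mice labelled with a tumour Nxpe4 was at -0.40 and not called, and the third Slc15a2 probe set was called at -0.59.

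Weeks were compared in KO and TG, whose lungs had no part in choosing the genes. Between 78 and 26 weeks 3 of 10 probe sets differed there, where 32.1% of all did: Slc15a2 at -0.87 and -0.84 on its 2 agreeing probe sets and Nxpe4 at 0.76 (limma adjusted p = 0.000305, 0.000184 and 0.000905). The third Slc15a2 probe set was at -0.05 (limma adjusted p = 0.860). In CD-1 styrene lungs alone 0 of 10 passed (1 unadjusted by limma), where 4.19% of all did, and the 2 agreeing Slc15a2 probe sets were at -0.60 and -0.41, with 95% intervals of -1.20 to 0.01 and -0.97 to 0.16.

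With the CD-1 air lungs of 78 weeks, which helped to choose the genes, included, 4 of 10 probe sets were called in CD-1, where 27.4% of all were. Fbp2 was at -1.08, the Pik3ap1 lead at 0.43 and Slc15a2 at -0.66 and -0.70 on the 2 agreeing probe sets, and the other Slc15a2 probe set was at 0.01. In styrene lungs alone Fbp2 was at -0.28. With only the arrays compared, Fbp2 was not called. The Slc15a2 lead, at -0.56, was not called without CD-1 styrene replicate 2 of 78 weeks, nor the Pik3ap1 lead, at 0.35, without replicate 3 of that group. The CD-1 air lungs measured 5.05, 4.59, 5.00, 4.07 and 4.37 for the Slc15a2 lead at 78 weeks, against 5.10, 5.36, 5.75, 5.46 and 5.04 at 26 weeks.

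Across individual CD-1 mice the members were largely unrelated. The 15 correlations of their lead probe sets, over 42 deviations from group means, ran from -0.30 (Serpina1b with Nxpe4) to 0.34 (Slc15a2 with Nxpe4). The genes most like each member in this measure were Ltbp2, a matrix protein gene, for Serpina1b (r = 0.64), Cstf3, an RNA cleavage factor gene, for Tmem87a (r = 0.88) and Fbp1 for Fbp2 (r = 0.88). For Pik3ap1 they were Katnal1 (r = -0.76) and Slc15a3 (r = 0.74), for Slc15a2 Mup3 (r = 0.67) and for Nxpe4 Nim1k (r = 0.63, and 0.48 without the 2 lungs farthest out). Each was picked for the largest size of r among all probe sets that name 1 gene, and that choice alone raises r. In C57BL/6 lungs Slc15a3 kept r = 0.84 with Pik3ap1. There r was 0.17 for Ltbp2, 0.14 for Cstf3, 0.03 for Fbp1, 0.13 for Katnal1, 0.02 for Mup3 and -0.03 for Nim1k. The leads of Serpina1b, Tmem87a and Fbp2 were dim in most C57BL/6 lungs. Tmem87a correlated more widely than the rest, with a median size of r over all probe sets of 0.27, against 0.12 to 0.16 for the other members.

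Over the 31 group means, which mainly hold the strain gap, Dlc1 and Rad51ap1 went most closely with Tmem87a (r = 0.99 and 0.98) and Cntnap2 and Bckdhb with Fbp2 (r = 0.98 for both). For Slc15a2 these were Prdx2 and Smim6 (r = 0.98 and 0.97), and for Nxpe4 Trim12a (r = 0.99). Serpina1b and Pik3ap1 were each the other's closest (r = 0.99). In styrene these genes differed between CD-1 and WT by 2.42 for Dlc1, 2.65 for Rad51ap1, 2.37 for Cntnap2 and 1.44 for Bckdhb, and by -2.93 for Prdx2, -3.23 for Smim6 and -2.83 for Trim12a.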

How the data were processed

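Per the labels, each array (HT_MG-430_PM) holds total RNA of 1 whole lung. The deposited table gives a log2 intensity for every probe set and array, made with RMA and Partek per the submitters' processing notes. Software versions, and any joint normalisation of plates, were not given in the sources used here. Values ran from 1.74 to 14.00. Precision is limited by the number of arrays.

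Groups, weeks and replicate numbers came from the labels. Plates were inferred from well labels, and fits on plate 4 alone leave out the 4 arrays that could lie on plate 3 or 4. The platform annotation gave 1 gene for 28898 probe sets and several for 551, which stay unnamed like the 15588 not listed. For 28689 probe sets the Entrez number was found in RefSeq, and the symbol given there was used.

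Probe sets above the 30th percentile of an array in at least 3 arrays were tested. The 31 group means and a plate 2 term were fitted in limma 3.58.1 (lmFit, eBayes) under R 4.3.3, and p-values were adjusted over all 39185 probe sets by Benjamini and Hochberg, with a threshold of 0.05. Differences include the plate term, so they can depart slightly from differences of raw means. Where a mean lay under the filter level, the fold is "at least", from the brighter mean against the higher of that level and the signal. The fit was tested on simulated data. Figures used matplotlib 3.10.9.

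Named genes are the members, up to 4 of each list with the smallest p, the closest correlates, called neighbours within 1 Mb and the next genes in the choosing contrast. Neighbours and promoters come from RefSeq tables of GRCm38.p6, and the array's own build is not given. Members, lists and tests were chosen with earlier results of these data known. Alternatives were other filters, a trended and robust eBayes, leaving out the plate term, only the arrays compared, a replicate block, fits without tumour-labelled mice or 104 weeks, fits within plates, means of probe sets, array centring and single arrays left out; 2 exclusions, the left-out arrays of 2 comparisons and 2 comparisons limited to lungs outside the choosing contrast were added after seeing the data.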

Additional observations from a re-analysis of the deposited data

Results flagged for a closer look

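Within single groups, 10 of 162 sets of lead values held a lung far from the others of its group by Dixon's test, which chance gives in about 1 of 20. For Serpina1b these were WT styrene replicate 3 of 52 weeks at 4.09 (others 2.72 to 2.86), WT styrene replicate 4 of 78 weeks at 5.08 (others 2.81 to 3.07), and the KO lungs with liver transcripts at 7.25 (others 2.89 to 3.20) and 9.56 (others 2.61 to 3.08). For Tmem87a it was CD-1 styrene replicate 2 of 26 weeks at 6.32 (others 7.45 to 7.59), the one lung of that group on plate 2. For Fbp2 it was KO air replicate 2 of 52 weeks at 3.91 (others 3.67 to 3.72).

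For Slc15a2 the lungs were CD-1 styrene replicate 3 of 104 weeks at 8.69 (others 4.92 to 6.89) and TG air replicate 5 of 52 weeks at 9.47 (others 8.80 to 9.00). For Nxpe4 they were CD-1 styrene replicate 1 of 26 weeks at 4.15 (others 3.14 to 3.38) and KO styrene replicate 3 of 104 weeks at 5.43 (others 7.28 to 8.03). Without the CD-1 lung at 8.69, a setting added after seeing the data, the Slc15a2 difference between CD-1 and WT in styrene was -3.85, against -3.78 with it.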

How the results depend on the processing

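Of 2830 recomputed differences of single probe sets, 2783 kept their side of the threshold. Those among them that changed sign passed in neither fit. The stricter filter on dim signals left 6 of the 10 probe sets, and so counts of 5 (CD-1 and WT), 6 (CD-1 and KO), 6 (CD-1 and TG), 5 (air, 26 weeks) and 3 (CD-1 styrene and air, 104 weeks). Without the plate term, 10 of 10 probe sets differed between CD-1 and WT, 1 between styrene and air in TG and 5 between 78 and 26 weeks in KO and TG. In CD-1 styrene lungs alone, 0 differed between 78 and 26 weeks, against 4 with air lungs that chose the genes. Between TG and KO, 1 differed without 104 weeks and 3 at 104 weeks on plate 4 alone, where the third Slc15a2 probe set reversed to 0.79, against -0.12. Between KO and WT, 1 differed on plate 1 alone. The cause was not tested.

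Leaving out single arrays gave counts of 9 to 10 (CD-1 and WT), 9 to 10 (CD-1 and KO), 10 to 10 (CD-1 and TG), 9 to 9 (air, 26 weeks), 0 to 1 (CD-1 styrene and air), 0 to 0 (WT styrene and air) and 3 to 4 (CD-1, 78 and 26 weeks). Arrays of the larger groups, such as the 10 CD-1 styrene lungs of 104 weeks, were not left out in turn. For CD-1 and WT 31 arrays were. Leaving out arrays was not run for KO and TG between 78 and 26 weeks.

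Replicate numbers were not taken to pair the samples. With them as a replicate block, 9 probe sets differed between CD-1 and WT, 9 between CD-1 and KO and 10 between CD-1 and TG. The one call lost was that of the second Pik3ap1 probe set against KO, at -0.26 (limma adjusted p = 0.0622). Deviations of 16 same-numbered pairs of CD-1 and WT lungs in styrene correlated from -0.33 to 0.25, and 8 pairs were over 0.1. Pairs with unlike numbers were not looked at, and large differences pass with or without a block. Whether the numbers pair lungs is thus not settled by these values.

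Over all probe sets, TG and KO differed in 150, but in 9120 without 104 weeks and 9311 on plate 4. CD-1 and WT differed in 5796 (1523 on plate 4), CD-1 and KO in 8224 (1407), CD-1 and TG in 6554 (11448), and KO and WT in 566 (27, and 3060 on plate 1). In CD-1, 78 and 26 weeks differed in 10721 (1642 in styrene lungs alone). Styrene and air differed in CD-1 in 161 (39 with only the arrays compared, 246 without tumour-labelled mice) and in TG in 0 (3180 without the plate term). Styrene and air differed in WT in 6 (13 without the plate term, 17 without tumour-labelled mice), in KO in 0 (at most 5), and their difference between CD-1 and WT in 0 (2 on plate 1).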
